A study of Mus musculus with 48 samples.

Results

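The Slc25 genes encode the mitochondrial carriers, and the members described here are the 47 of 21558 genes in the deposited table whose symbol is Slc25a followed by a number. The table holds RPKM values (reads scaled to transcript length and to the library's mapped reads) of mouse hypothalamus in 48 RNA-seq libraries, each made from tissue pooled over 3 male mice (144 mice in all) that the labels call C57BL/6 and the design text C57BL/6N. The libraries form 8 series of 6, and within a series the titles carry the numbers 1, 5, 9, 13, 17 and 21, which have no unit in the labels and are taken here, as an assumption, as hours of the day. The design allows comparisons of hind limb unloading, of noise, of period and of the title number.

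Mice of the early period were 2 months old by the labels and were kept at 10 dBA and normal air pressure. They gave a pair of free-moving series (early free a and b) and a pair of series under hind limb unloading (early unloaded a and b), and the labels within each pair are the same. Mice of the late period were 3 months old by the labels, although the design text gives 2 months for all mice. They were either quiet, at 10 dBA and normal pressure (late quiet free and late quiet unloaded), or held at 85 dBA and 0.9 atm (late noise free and late noise unloaded). Noise and low pressure were always given together and cannot be told apart, and neither can age and the length of stay. Hind limb unloading lifts the hind limbs off the floor and is a ground model of weightlessness. Each late condition is 1 series of 6 pools, so the condition and any other difference between series cannot be told apart, and p-values measure the spread between pools. In bulk tissue, fewer cells of a type and less RNA per cell cannot be told apart.

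Most carriers of the family sit in the inner mitochondrial membrane and swap one small molecule for another, and so connect the cytosol with the matrix. The adenine nucleotide carriers exchange ATP for ADP and the phosphate carrier brings in phosphate, which together feed ATP synthase. Others move the metabolites of the malate-aspartate shuttle, amino acids, acylcarnitines, nucleotides, cofactors, iron and glutathione. In brain, neurons depend on the aspartate-glutamate carrier for passing reducing power from glycolysis into the mitochondrion, and glial cells use glutamate carriers to burn glutamate.

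The libraries held an estimated 28.4 to 55.2 M reads (median 38.1 M), as recovered from the size of the steps between low RPKM values. All 11 hypothalamic marker genes on the list used had a mean above 0.5 RPKM over the 48 libraries, so the labelled tissue was seen in the data. Their sum was lowest in the late quiet series, with medians of 1910 RPKM (free) and 2659 (unloaded) against 4490 to 7012 in the other 6. The sum of 3 thalamic markers was highest there, with medians of 40.5 and 44.4 RPKM against 13.9 to 18.7, and 5 choroid plexus markers summed to 387 and 278 RPKM at number 17 of these 2 series against at most 38.0 in the other 6. The late comparisons below that use a late quiet series all stand beside these values, whose part was not tested. The share of RPKM taken by the 13 mitochondrially encoded genes differed widely between and within series. It ran from 18.7% to 62.4% in early free a, from 31.7% to 53.2% in early free b, from 11.2% to 48.2% in early unloaded a and from 24.6% to 51.0% in early unloaded b. In the late series it was 8.95% to 13.5% in late quiet free, 12.7% to 16.6% in late quiet unloaded, 15.1% to 38.8% in late noise free and 10.5% to 50.04% in late noise unloaded. RPKM are shares of a total, so this share moves all nuclear genes, and its part in each result was not tested beyond the values given with it. Summed transcripts of 6 anterior pituitary genes in the table reached 12137 RPKM in early unloaded a number 9 against a median of 7.66 over all libraries, and summed red-cell transcripts ran from 528 to 6244 RPKM, with the highest in early free a number 1.

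Results below turn on the mitoferrin called for late quiet unloading and on the pair of members with a course over the title number. Promoter sequences are shown for these 3 members. Each runs from 250 bases before to 20 bases after the RefSeq start site on GRCm38.p6, 5′ to 3′ on the minus strand that holds the gene. Capitals mark the GC box GGGGCGG, which Sp1 is known to bind, in Slc25a28 (chr19:43674862-43675131) and Slc25a29 (chr12:108835857-108836126), and both that box, read on the other strand as CCGCCCC, and the E-box CACGTG, which clock factors are known to bind, in Slc25a33 (chr4:149774248-149774517).
Slc25a28: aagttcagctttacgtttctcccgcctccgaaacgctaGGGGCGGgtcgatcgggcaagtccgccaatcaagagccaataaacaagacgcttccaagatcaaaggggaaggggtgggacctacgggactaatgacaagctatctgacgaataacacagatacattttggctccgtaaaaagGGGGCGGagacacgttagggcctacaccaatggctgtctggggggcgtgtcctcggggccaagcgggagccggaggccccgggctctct
Slc25a33: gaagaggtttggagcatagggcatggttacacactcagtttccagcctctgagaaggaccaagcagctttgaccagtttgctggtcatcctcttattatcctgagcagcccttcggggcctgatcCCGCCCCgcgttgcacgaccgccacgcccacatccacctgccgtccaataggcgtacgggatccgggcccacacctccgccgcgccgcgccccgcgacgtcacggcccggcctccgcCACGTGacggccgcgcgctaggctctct
Slc25a29: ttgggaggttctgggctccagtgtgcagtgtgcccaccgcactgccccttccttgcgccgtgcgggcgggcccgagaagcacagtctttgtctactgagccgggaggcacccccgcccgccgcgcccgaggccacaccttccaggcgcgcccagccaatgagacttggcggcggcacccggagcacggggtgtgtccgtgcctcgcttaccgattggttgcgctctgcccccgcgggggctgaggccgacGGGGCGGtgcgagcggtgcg

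RefSeq promoter windows of 300 bases (250 before and 50 after the start) matched 36 of the 47 members by symbol. The GC box, searched on both strands, was in windows of 20 of these 36 members, in 47.83% of their 46 windows and in 23.18% of all 32851 windows, and the members' windows were also richer in G and C (median 59.33% against 52.67%). The E-box was in windows of 7 of the 36 members, in 17.39% of the members' windows and in 7.15% of all windows. In Slc25a33 its first base lay 8 bases before the start site, and the window of Slc25a29 held no E-box. The part of the E-box in any course over the title number was not tested. The ETS motif CCGGAAG was in 7 members, among them Slc25a3 and Slc25a4, in 15.22% of the members' windows and in 8.86% of all windows. The D-box TTATGTAA and the ROR motif TAGGTCA were in 0 of the 36 members' windows, against 0.94% and 2.61% of all windows. These are matches of letters and not shown to be sites.

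**Figure D1:**
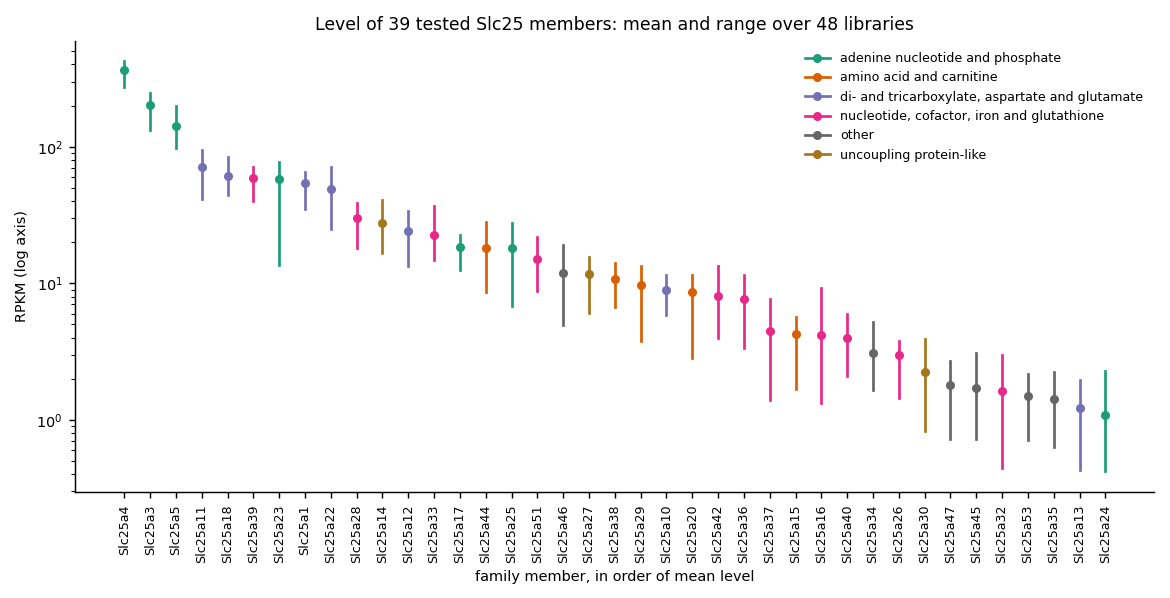
Mean RPKM (points, log axis) and the lowest and highest of 48 libraries (lines) for 39 of the 40 members with a mean of at least 0.5 RPKM, coloured by role. Slc25a4 stands at the left with a mean of 367 RPKM and Slc25a24 at the right with 1.08 RPKM.

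The adenine nucleotide and phosphate carriers Slc25a4, Slc25a3 and Slc25a5 had the highest levels of the 47 members, with the levels per length set out in the plot of member levels. Slc25a4, the adenine nucleotide carrier of heart, muscle and brain, averaged 367 RPKM, which was 26.9% of the members' sum. Mtch1, a carrier-like protein of the outer membrane that the rule on symbols leaves out, averaged 268 RPKM. The phosphate carrier Slc25a3 averaged 203 RPKM and Slc25a5, the adenine nucleotide carrier of dividing cells, averaged 142 RPKM. Processed pseudogenes of Slc25a3, Slc25a4 and Slc25a5 can share their reads, so these levels are uncertain. The next levels belonged to the oxoglutarate carrier Slc25a11 (70.7 RPKM), the glutamate carrier Slc25a18 (61.3 RPKM), the glutathione carrier Slc25a39 (58.7 RPKM), the ATP-Mg/phosphate carrier Slc25a23 (58.0 RPKM), the citrate carrier Slc25a1 (54.1 RPKM) and the second glutamate carrier Slc25a22 (49.1 RPKM). The ranges of these 6 over the libraries overlapped widely.

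Paralogs with like cargo stood at different levels. Of the aspartate-glutamate carriers, Slc25a12 (aralar, the form of brain and muscle) averaged 24.2 RPKM and Slc25a13 (citrin, the form of liver) 1.23 RPKM. Of the mitoferrins, which bring iron into the matrix, Slc25a28 averaged 30.2 RPKM and Slc25a37, the form of red-cell precursors, 4.46 RPKM. Their lowest and highest libraries did not overlap in either pair (13.3 against 1.97 RPKM for the aspartate-glutamate carriers, 18.2 against 7.61 RPKM for the mitoferrins).

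The other 7 members had a mean under 0.5 RPKM and entered no test. They were the oxodicarboxylate carrier Slc25a21 (0.431 RPKM), the ornithine carrier Slc25a2 (0.210 RPKM), Slc25a48 (0.176 RPKM), Slc25a41 (0.159 RPKM), the testis adenine nucleotide carrier Slc25a31 (0.0759 RPKM), Slc25a43 (0.0674 RPKM) and Slc25a54, which was listed at 0 in 39 of 48 libraries. The remaining 40 members were tested. The summed RPKM of the family ran from 934 to 1614 over the libraries, and both of these extremes fell in the first early series pair (free and unloaded).

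Differences are given as log2 of RPKM plus 0.5, with the standard error (SE) and a limma p adjusted over the 13685 genes with a mean of at least 0.5 RPKM. A member is called where the adjusted p is below 0.05, and a background percent is the share of all tested genes called in the same direction. The plot of differences sets each member beside the median of all tested genes.

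Under early unloading, 27 members were higher and 0 lower, against a background of 50.9% higher and 1.88% lower. The members' median difference was 0.25 and that of all tested genes 0.23. Under late quiet unloading 1 member was higher and 0 lower (background 9.38% and 3.38%), with medians of 0.04 for the members and 0.02 for all genes. Under late noise unloading no member was called by limma in either direction (background 0.0146% and 0%), and 1 member and 855 genes in all had an unadjusted p under 0.05. Beside a background this broad, the early count alone is not read as a result about the family.

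With noise in free-moving mice, 5 members were higher and 13 lower (background 21.2% and 36.4%; medians −0.20 for members, −0.15 for all genes). With noise in unloaded mice, 0 members were higher and 22 lower (background 6.75% and 45.6%; medians −0.35 and −0.28). Late against early in free-moving mice, 30 members were higher and 2 lower (background 60.5% and 18%; medians 0.42 and 0.43). Late against early in unloaded mice, 16 members were higher and 2 lower (background 38.8% and 8.53%; medians 0.23 and 0.21). Over the 7 comparisons late quiet free stands in 3 and late quiet unloaded in 3, so the comparisons are not independent of each other.

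The direction of such counts moved with the scaling. With noise in free-moving mice the 5 higher and 13 lower members became 10 and 16 after quantile normalization, 4 and 22 after rescaling to nuclear genes, 1 and 13 once each library's trend over gene length and GC content was taken away, and 17 and 2 after adjusting for the mitochondrial share. Genes called higher and lower in all were 4252 and 4663, 2588 and 6566, 2393 and 4330, and 5180 and 1538 in that order. Genes tested were 13685, 13672, 13520 and 13685. Late against early in free-moving mice, 30 higher and 2 lower became 18 and 12 after quantile normalization and 2 and 13 with the covariate, and of the 32 called members 9 and 18 turned sign under these alternatives. Genes called higher and lower in all were 5560 and 5025, and 2175 and 4023. The median of all genes went from 0.43 to 0.03 and −0.09. The share of all called genes that turned sign is not given here. In early unloading, the 27 higher members became 6, 12, 28 and 0 under the same 4 alternatives in that order, and the median of all genes 0.01, 0.13, 0.22 and 0.00. Genes called higher in all were 1521, 3052, 7232 and 1. What follows therefore leans on the members whose call was kept under these 4 alternatives, and gives the rest as values. The adjustment for the mitochondrial share has a limit in free-moving mice. Late quiet free (8.95% to 13.5%) did not overlap early free a, early free b or late noise free (lowest 18.7%, 31.7% and 15.1%). Adjusted levels and ratios there extend the slope beyond shares the series had in common. A call kept or lost in them cannot decide the part of the share. Of the 27 calls in early unloading and the 22 with noise in unloaded mice, 0 were kept. With the covariate only 1 and 0 of all 13685 genes were called in these 2 comparisons. The loss is therefore not read as a result about the carriers. With noise in free-moving mice 3 of 18 were kept (Slc25a16, Slc25a28 and Slc25a34). From early to late, 3 of 32 were kept in free-moving mice (Slc25a16, Slc25a28 and Slc25a32). In unloaded mice 4 of 18 were kept from early to late (Slc25a16, Slc25a30, Slc25a32 and Slc25a37). The share of all called genes that kept their call under the same 4 alternatives is not given here. The kept counts are therefore not read as a result about the family, nor a kept call as particular to a carrier.

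Of the iron carriers, Slc25a28 was lowest in the quiet free-moving mice of the late period. Late quiet unloaded and late noise free were each called higher against that series. Early unloading, unloading under noise and noise in unloaded mice were not called for it. Slc25a28 (mitoferrin 2, chromosome 19, 43663801 to 43674881, minus strand, GRCm38) had its lowest level in late quiet free, with 18.2, 20.7 and 23.4 RPKM as lowest, median and highest library. In late quiet unloaded the lowest, median and highest were 26.5, 27.8 and 31.0 RPKM. The groups did not overlap, every title number moved the same way (6 of 6), and the difference was 0.43 ± 0.10 (SE), a fold of 1.34 (adjusted p = 0.0026). It was the single member called for unloading in the late quiet mice in the main fit (background 9.38% higher). Its call was kept under all 4 alternatives and without any 1 title number. It was not the single one under 2 of them, where 10 members (quantile normalization) and 12 (mitochondrial share) were called.

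Slc25a28 was also higher with noise in free-moving mice. Late noise free gave 24.5, 34.4 and 35.2 RPKM, again without overlap with late quiet free, and a difference of 0.62 ± 0.10 (adjusted p = 1.1e-06, 6 of 6 title numbers). The late noise unloaded libraries gave 28.0, 32.8 and 37.5 RPKM and stood 0.22 ± 0.10 above late quiet unloaded, which missed the threshold (adjusted p = 0.054). Within the noise series unloading made a difference of 0.02 ± 0.10 (adjusted p = 0.96). The test of whether unloading acted differently under noise and in quiet gave −0.41 ± 0.13, adjusted p = 0.067.

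In the early series Slc25a28 overlapped its levels in the noise series. Early free a gave 22.9, 28.5 and 38.5 RPKM, early free b 29.9, 33.6 and 37.9, early unloaded a 29.3, 31.6 and 35.9, and early unloaded b 31.2, 32.6 and 35.9. Late quiet free was below both early free series by 0.56 on the log2 scale (difference −0.56 ± 0.08, adjusted p = 8.6e-08), with 1 library of early free a inside its range. Late quiet unloaded was below the early unloaded series by less (−0.21 ± 0.08, adjusted p = 0.036), and this call ended once the length and GC trend was removed (adjusted p = 0.13). Early unloading made a difference of 0.07 ± 0.07 (adjusted p = 0.37), and the difference between late quiet and early unloading was itself called (0.36 ± 0.12, adjusted p = 0.02), although not without title number 13 (adjusted p = 0.079).

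**Figure D2:**
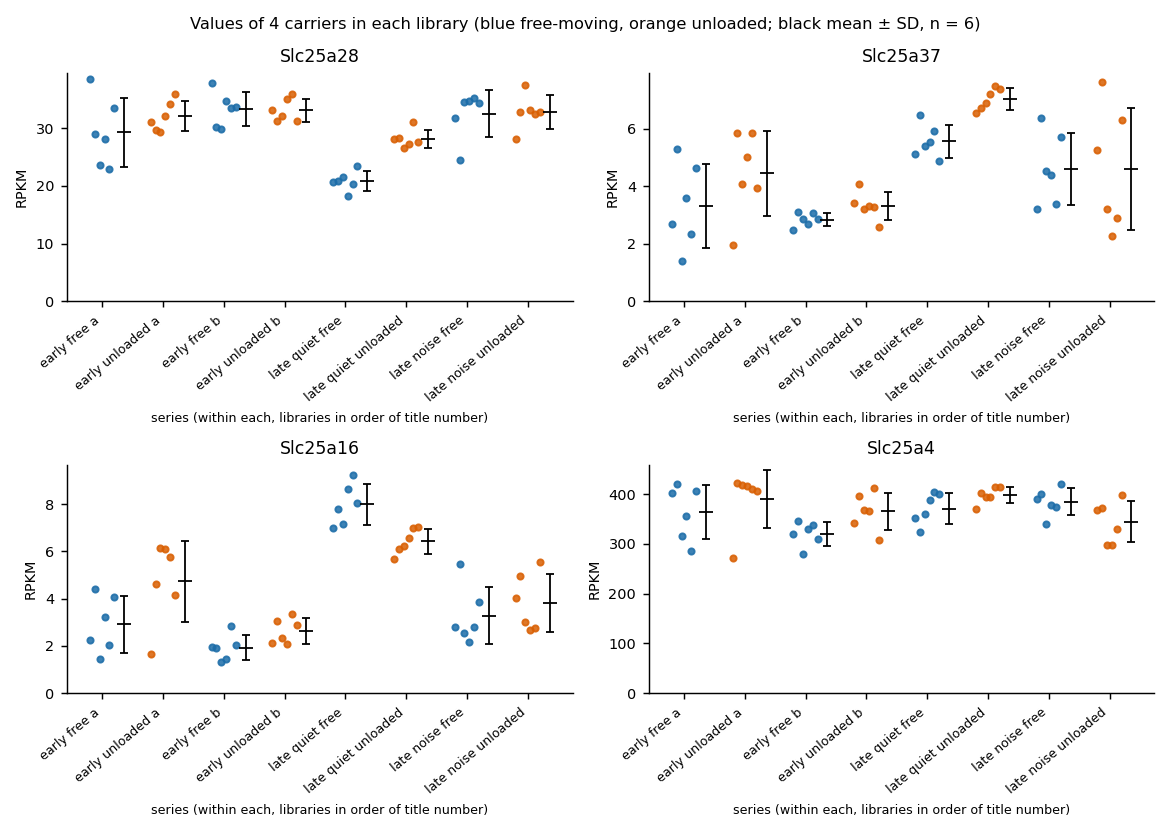
RPKM in each library of Slc25a28, Slc25a37, Slc25a16 and Slc25a4 by series, with the mean ± SD of 6 libraries in black. Late quiet free is the lowest series for Slc25a28 (mean 20.8 RPKM) and the highest for Slc25a16 (mean 7.99 RPKM), while Slc25a4 averages 320 to 398 RPKM in every series.

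The other mitoferrin had a different course over the series, and the ratio of the pair is tested in the next paragraph. Slc25a37 (chromosome 14, 69241848 to 69285112) gave 4.88, 5.47 and 6.49 RPKM in late quiet free and 6.53, 7.04 and 7.47 RPKM in late quiet unloaded, a difference of 0.32 ± 0.19 that missed the threshold (adjusted p = 0.28) although the libraries did not overlap. In early unloaded a and b its medians were 4.54 and 3.31 RPKM, and the late quiet unloaded libraries all lay above both series (highest 5.85 and 4.06 RPKM). That difference was 0.83 ± 0.17 (adjusted p = 0.00059) and was kept under all 4 alternatives. With noise in unloaded mice Slc25a37 fell by 0.67 on the log2 scale (adjusted p = 0.0059). This call was lost after adjusting for the mitochondrial share, where 0 of all tested genes were called in that comparison. A pair of genes of unknown product, Gm31748 and Gm27223, overlap Slc25a37 on the opposite strand by 473 bases, and the strandedness of the libraries is not given in the sources used here. Since Slc25a37 is the form of red-cell precursors, the summed red-cell transcripts are given beside it: their medians were 776 RPKM in late quiet free, 1197 in late quiet unloaded, 828 in early unloaded a and 1665 in early unloaded b, and their part was not tested.

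A ratio of 2 genes within a library is less open to the scaling of that library than a level, although the 0.5 RPKM added to both genes leaves some of it where a gene is low. The log2 ratios of 8 pairs of paralogs were compared in 7 comparisons by permutation over libraries (exact for groups of 6), with p adjusted over the 56 tests. Of these, 26 passed, and none of the 26 was in early unloading. When each gene's slope on the mitochondrial share was taken away first, 9 passed, and 7 of the 26 were kept. No background share was computed from ratios of other gene pairs, so the count of 26 is not read as a result about these pairs. The length and GC trend was not removed from the ratios, and its part in them was not tested. The log2 ratio of Slc25a28 to Slc25a37 averaged 3.19 over the 12 early free libraries (2.35 to 3.69) and 1.82 over the 6 of late quiet free (1.61 to 2.15), without overlap (difference −1.37, permutation adjusted p = 0.00201). In unloaded mice the same ratio was 2.97 (2.25 to 3.68) early and 1.93 (1.84 to 2.02) late, again without overlap (−1.04, permutation adjusted p = 0.00201). With noise the ratio was higher by 0.91 in free-moving mice (exact permutation adjusted p = 0.0269, with overlap) and by 0.89 in unloaded mice (exact permutation adjusted p = 0.0135, without overlap). After the adjustment for the share, the late against early differences shrank to −0.56 in free-moving mice (permutation adjusted p = 0.0404, with overlap) and −0.69 in unloaded mice (permutation adjusted p = 0.00302, without overlap). Those with noise shrank to 0.40 and 0.42 and no longer passed (permutation adjusted p = 0.107 and 0.0808).

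**Figure D3:**
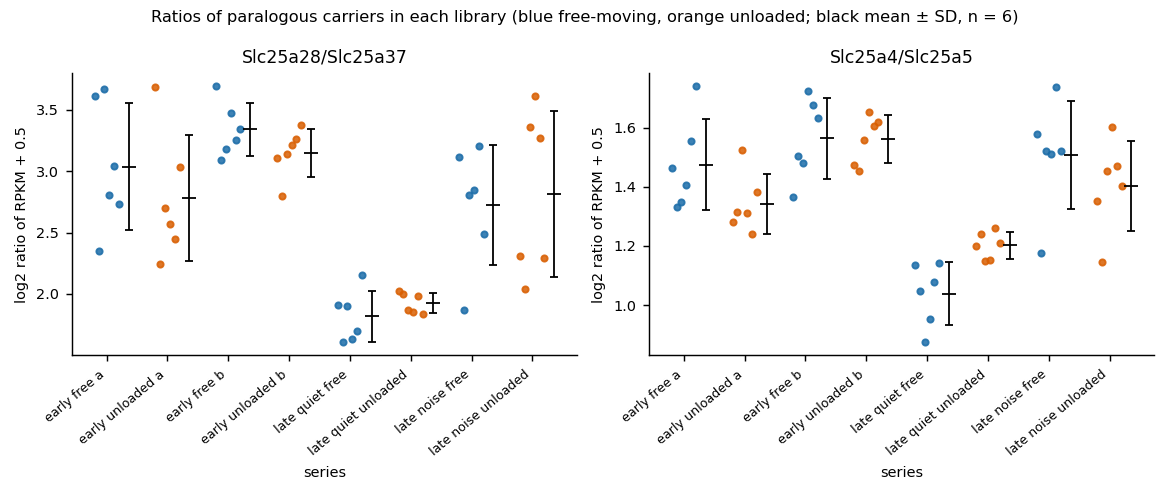
Log2 ratios of Slc25a28 to Slc25a37 and of Slc25a4 to Slc25a5 in each library by series, with the mean ± SD of 6 libraries in black. Both ratios are lowest in late quiet free (means 1.82 and 1.04).

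Among the adenine nucleotide and phosphate carriers, Slc25a4 (chromosome 8, 46206797 to 46211284) was called in none of the 7 comparisons, with differences from −0.22 to 0.14. Its series medians ran from 325 RPKM in early free b to 413 RPKM in early unloaded a. Slc25a5 (chromosome X, 36795651 to 36798807) was called in 5 of the 7. It gave 97.1, 129 and 166 RPKM in early free a, 99.25, 102 and 124 in early free b, and 156, 186 and 200 in late quiet free, so that late quiet free lay above early free b in every library and overlapped early free a. The difference was 0.60 ± 0.10 (adjusted p = 1.2e-06), and with noise it was −0.42 ± 0.12 in free-moving mice (adjusted p = 0.0027) and −0.42 ± 0.12 in unloaded mice (adjusted p = 0.0053). All 3 calls were lost after adjusting for the mitochondrial share.

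The ratio of the pair of adenine nucleotide carriers was lowest in late quiet free. The log2 ratio of Slc25a4 to Slc25a5 was 1.52 in early free (1.33 to 1.74), 1.04 in late quiet free (0.874 to 1.144), 1.202 in late quiet unloaded (1.147 to 1.262), 1.51 in late noise free (1.17 to 1.74) and 1.40 in late noise unloaded (1.14 to 1.60). Late quiet free did not overlap any of early free, late quiet unloaded or late noise free. The differences were −0.48 for late against early (permutation adjusted p = 0.00201), 0.16 for late quiet unloading and 0.47 for noise (exact permutation adjusted p = 0.0135 for both), 6 of 6 title numbers in each. With the slopes on the mitochondrial share taken away they were −0.37 (permutation adjusted p = 0.00302), 0.15 (permutation adjusted p = 0.0724, no longer passing) and 0.40 (permutation adjusted p = 0.0242). Pseudogene reads could enter both genes, and their part in the ratio was not tested.

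The rest of that role moved less evenly. Slc25a3 rose by 0.26 ± 0.08 with early unloading (adjusted p = 0.0088) and stood 0.33 ± 0.09 higher in late quiet free than in early free (adjusted p = 0.0017). The calcium-regulated ATP-Mg/phosphate carriers are Slc25a23, Slc25a24 and Slc25a25. Slc25a25 gave 10.1 to 15.9 RPKM in early free b, 6.83 to 22.5 in early free a and 23.9 to 27.8 in late quiet free, without overlap, a difference of 1.04 ± 0.17 (adjusted p = 6e-07) that turned to −0.09 after adjusting for the mitochondrial share. Its slope on that share was the steepest of the family (−0.45 ± 0.03 per unit of log2 odds, against a median of −0.20 for all genes). Exons of Slc25a25 overlap coding exons of Naif1 on the opposite strand by 379 bases.

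The largest difference of any member in the 7 comparisons was in Slc25a16, a carrier tied to coenzyme A in the matrix (chromosome 10, 62920633 to 62946498). Early free a gave 1.43, 2.73 and 4.42 RPKM, early free b 1.33, 1.94 and 2.85, and late quiet free 7.00, 7.92 and 9.25. The late quiet libraries all lay above the early ones, and the difference was 1.61 ± 0.17, a fold of 3.05 (adjusted p = 6.8e-11). With noise in free-moving mice the level was 2.17, 2.81 and 5.47 RPKM, lower than late quiet free in every library (−1.22 ± 0.19, adjusted p = 2.3e-06). In unloaded mice, late quiet gave 5.67, 6.41 and 7.04 RPKM against medians of 5.19 and 2.60 in early unloaded a and b, a difference of 0.83 ± 0.17 (adjusted p = 0.00065), with overlap with the first of them. These 3 calls were kept under all 4 alternatives.

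Slc25a16 also differed between series with the same labels. It was lower in the second early pair than in the first (−0.55 ± 0.14, adjusted p = 0.017), where 3 members in all were lower and 0 higher (background 6.67% lower and 3.72% higher). The other 2 were the folate carrier Slc25a32 (−0.51 ± 0.10, adjusted p = 0.0084) and Slc25a5 (−0.28 ± 0.08, adjusted p = 0.03). No call of this comparison was left without title number 13. A spread of this size between series of like label stands beside every late comparison, each of which rests on 1 series a condition.

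Of the other carriers of nucleotides and cofactors, Slc25a32 and Slc25a51 were also higher in late quiet free than in early free. Slc25a32 gave 1.03 to 2.04 RPKM in early free a, 0.45 to 1.11 in early free b and 2.29 to 3.00 in late quiet free, without overlap, a difference of 1.10 ± 0.12 (adjusted p = 3.5e-10) kept under all 4 alternatives. In unloaded mice Slc25a32 differed by 0.62 ± 0.12 (adjusted p = 0.00059), also kept. The NAD carrier Slc25a51 stood 0.80 ± 0.13 higher in late quiet free than in early free (adjusted p = 4.8e-07), a call not kept under all 4. Of the 12 tested members of this role 8 were higher and 1, Slc25a28, was lower in that comparison, near the background of 60.5% and 18%. With noise in free-moving mice 3 of the 12 were higher and 3 lower (background 21.2% and 36.4%), and among the higher ones were Slc25a28 and the glutathione carrier Slc25a39 (0.28 ± 0.11, adjusted p = 0.024). The value for Slc25a39 turned to −0.03 once the length and GC trend was removed. Its paralog Slc25a40 was the lowest by p of the 22 members called with noise in unloaded mice (−0.58 ± 0.14, adjusted p = 0.003).

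The role of di- and tricarboxylate, aspartate and glutamate carriers includes the membrane steps of the malate-aspartate shuttle. Slc25a12 gave 13.3 to 27.9 RPKM in early free a, 15.8 to 19.2 in early free b and 30.0 to 34.0 in late quiet free, without overlap, and rose by 0.81 ± 0.12 from early to late (adjusted p = 8.9e-08), a value that shrank to 0.05 with the covariate. With noise in free-moving mice it fell by 0.49 on the log2 scale (adjusted p = 0.0025), with late noise free at 20.9 to 28.7 RPKM. With early unloading it was higher by 0.39 ± 0.10 (adjusted p = 0.0046, 6 of 6 title numbers). The neuronal glutamate carrier Slc25a22 gave a like set, with 0.83 ± 0.15 for late against early in free-moving mice (adjusted p = 3.8e-06), −0.64 ± 0.17 for noise in unloaded mice (adjusted p = 0.0044) and 0.44 ± 0.12 for early unloading (adjusted p = 0.006). The glial form Slc25a18 differed by 0.31 ± 0.09 from early to late in free-moving mice (adjusted p = 0.0026).

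The ratio of Slc25a22 to Slc25a18 was higher in late quiet free than in early free by 0.52 (permutation adjusted p = 0.00845) and lower with noise by 0.30 in free-moving mice (difference −0.30, permutation adjusted p = 0.0383) and by 0.51 in unloaded mice (−0.51, permutation adjusted p = 0.0202), with overlap in all 3. None of the 3 passed once the slopes on the mitochondrial share were taken away (0.08, −0.02 and −0.25, with permutation adjusted p of 0.552, 0.811 and 0.115). Summed neuronal markers, given because Slc25a22 is called the neuronal form, had medians of 1137 RPKM in late quiet free, 810 and 725 in early free a and b, and 839 in late noise free, and of 1126 in late quiet unloaded against 806 in late noise unloaded. Summed astrocyte markers, given because Slc25a18 is a glial gene, had medians of 380 RPKM in late quiet free and 269 and 300 in early free a and b, and 294 in late noise free. The part of either list was not tested.

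The dicarboxylate carrier Slc25a10 and the citrate carrier Slc25a1 went the other way. Slc25a10 gave 5.85, 7.45 and 7.87 RPKM in late quiet free and 8.13, 10.2 and 10.9 in late noise free, without overlap (0.39 ± 0.11, adjusted p = 0.0017), and Slc25a1 43.4 to 51.6 against 54.7 to 62.6 RPKM, also without overlap (0.27 ± 0.10, adjusted p = 0.02). Neither was called once the length and GC trend was removed, and Slc25a1 then differed by −0.14. Slc25a10 was also the second member lower in late quiet free than in early free (−0.20 ± 0.09, adjusted p = 0.046), a value of 0.04 without the length and GC trend. The shuttle enzymes beside these carriers, Mdh1, Mdh2, Got1 and Got2, were all 4 higher with early unloading and late against early in free-moving mice (background 50.9% and 60.5%), and 2 and 3 of them were lower with noise in free-moving and unloaded mice (background 36.4% and 45.6%). Got1, the cytosolic aspartate aminotransferase, differed most, by 1.13 ± 0.16 from early to late in free-moving mice (adjusted p = 4.5e-08).

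Of the amino acid and carnitine carriers, Slc25a44, the carrier of branched-chain amino acids, moved furthest. It gave 8.61, 13.6 and 19.1 RPKM in early free a, 11.7, 13.4 and 15.4 in early free b and 23.6, 25.9 and 27.9 in late quiet free. The late libraries all lay above the early ones (0.93 ± 0.12, adjusted p = 6.3e-09). Late noise free, at 14.2 to 21.2 RPKM, lay below late quiet free in every library (−0.58 ± 0.14, adjusted p = 0.00051). Early unloading gave 0.40 ± 0.10 (adjusted p = 0.0044), and all 3 calls were lost after adjusting for the mitochondrial share. The carnitine-acylcarnitine carrier Slc25a20 differed by 0.31 ± 0.10 with early unloading (adjusted p = 0.015) and by 0.43 ± 0.13 from early to late in free-moving mice (adjusted p = 0.0028). Both differences include early free a number 1, where Slc25a20 was at 2.83 RPKM, against 6.02 to 8.77 in the other libraries of that series.

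The uncoupling protein-like carriers have no settled cargo. Slc25a30 gave 1.13 to 2.48 RPKM in early free a, 1.13 to 1.68 in early free b and 3.17 to 3.89 in late quiet free, without overlap (0.97 ± 0.14, adjusted p = 8.8e-08). This call in free-moving mice was not kept under all 4 alternatives. In unloaded mice the difference was 0.64 ± 0.14 (adjusted p = 0.0011), which was kept under all 4 alternatives. Slc25a27 differed by 0.37 ± 0.10 with early unloading (adjusted p = 0.0059), and Slc25a14 was called in none of the 7 comparisons. Ucp2, a family member under another symbol, was called for early unloading alone (0.40 ± 0.11, adjusted p = 0.006).

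Among the other members, the orphan Slc25a34 was lower with noise in free-moving mice. It gave 3.39, 3.94 and 5.04 RPKM in late quiet free and 1.73, 2.38 and 4.15 in late noise free, with overlap (−0.57 ± 0.13, adjusted p = 0.00039), and this call was kept under all 4 alternatives. Slc25a46, an outer-membrane protein of mitochondrial fission and fusion, stood 0.81 ± 0.15 higher in late quiet free than in early free (adjusted p = 9e-06). That call was not kept under all 4. Slc25a47, known from liver, was the second member lower in late quiet than early unloaded mice (−0.32 ± 0.13, adjusted p = 0.039), which did not pass without the filter on low values (adjusted p = 0.052). Slc25a35 shares 1151 of its 3677 exonic bases with Rangrf on the opposite strand, and without known strandedness, reads in that stretch cannot be assigned to one of the genes.

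Early unloading called the most members of the 3 unloading comparisons, and the count depended on few title numbers. The largest differences were in Slc25a16 (0.49 ± 0.14), Slc25a25 (0.47 ± 0.14), Slc25a22 (0.44 ± 0.12) and Slc25a36, a pyrimidine nucleotide carrier (0.43 ± 0.13), with adjusted p of 0.0061, 0.0075, 0.006 and 0.009 over 12 libraries against 12. In the first pair of series 22 of the 27 members were called, and in the second pair 0. Without title number 9 or 17 no member was called, where 20 and 0 genes in all were higher, and without number 13, 13 members were called. After adjusting for the mitochondrial share the count was 0, where 1 gene in all was higher. Leaving out single libraries of the first pair (the pituitary-rich early unloaded a number 9, or early free a numbers 1, 9 or 17) left 23 to 26 of the 27 calls.

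Whether unloading differed between the periods was tested directly. One member was higher and 5 lower for late quiet less early unloading (background 7.98% and 25.6%). The 5 were Slc25a12 (−0.58 ± 0.17, adjusted p = 0.011), Slc25a44 (−0.58 ± 0.17, adjusted p = 0.011), Slc25a16 (−0.78 ± 0.24, adjusted p = 0.013), the ATP-Mg/phosphate carrier Slc25a24 (−0.57 ± 0.19, adjusted p = 0.022) and Slc25a32 (−0.48 ± 0.18, adjusted p = 0.032), all lost with the covariate. For late noise less late quiet unloading no member was called by limma (background 0.482% higher and 3.9% lower), with 6 members at an unadjusted p under 0.05.

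The slope on the mitochondrial share, within series and title number, was negative and called in 37 of the 40 tested members and positive in 0 (background 74.7% negative and 3.69% positive). The median slope was −0.20 for the members and for all genes, and some negative slope is built into shares of a total. Slc25a28 (−0.06 ± 0.03, adjusted p = 0.13) and Slc25a47 (−0.08 ± 0.06, adjusted p = 0.2) were among the 3 not called. Beside Slc25a25, the steepest by p were Slc25a51 (−0.32 ± 0.03, adjusted p = 3.4e-14) and Slc25a12 (−0.30 ± 0.02, adjusted p = 4.1e-14).

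Over the title number, taken as a time of day with a period of 24 h, 2 members passed (background 1.76%). Slc25a33, a pyrimidine nucleotide carrier (chromosome 4, 149744036 to 149774277), averaged 26.4 ± 4.6 RPKM (SD, n = 8) at number 1, 22.9 ± 2.2 at 5, 19.8 ± 3.0 at 9, 19.96 ± 2.42 at 13, 21.7 ± 4.3 at 17 and 25.4 ± 2.5 at 21. Its lowest library fell at number 9 or 13 in 7 of the 8 series and at 17 in early free a, and its highest at 1 or 21 in all 8. The fitted amplitude was 0.22 ± 0.04 on the log2 scale (adjusted p = 0.00075). An antisense gene, Gm13068, overlaps Slc25a33 by 281 bases.

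Slc25a29, a carrier of basic amino acids (chromosome 12, 108825873 to 108835883), averaged 11.3 ± 1.2 RPKM (SD, n = 8) at number 1, 10.7 ± 1.6 at 5, 9.52 ± 1.69 at 9, 8.46 ± 1.44 at 13, 8.17 ± 2.13 at 17 and 9.77 ± 1.39 at 21. Its highest library was at number 1 or 5 in all 8 series, and its lowest at 13 or 17. The amplitude was 0.24 ± 0.05 (adjusted p = 0.0056), but it did not pass with the number as 6 unordered levels (adjusted p = 0.069), without number 13 (adjusted p = 0.062) or without number 17 (adjusted p = 0.062). The spread within a number was wide for both, as the plot by title number shows.

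**Figure D4:**
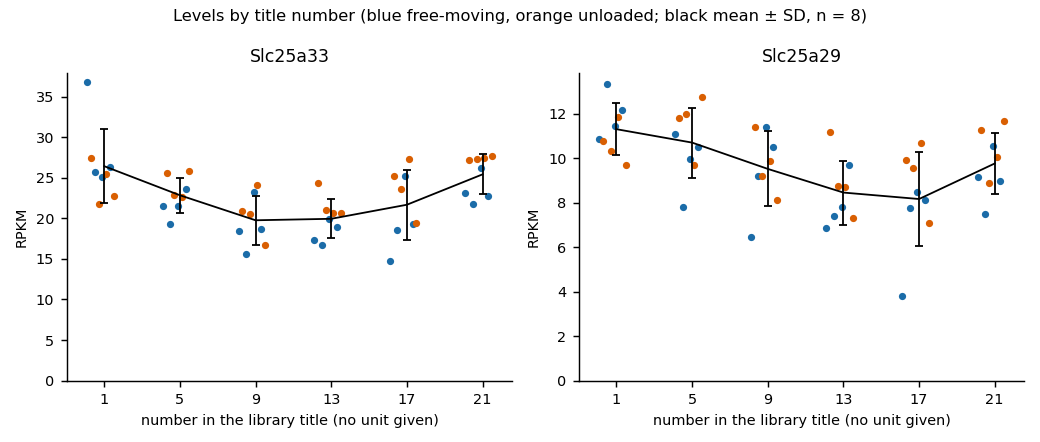
RPKM of Slc25a33 and Slc25a29 in each library against the number in its title (no unit given), with the mean ± SD of 8 libraries joined in black. Slc25a33 averages 26.4 RPKM at number 1 and 19.8 at 9, and Slc25a29 11.3 at number 1 and 8.17 at 17.

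Among other mitochondrial transporters, 22 were tested. Of these, 11 were higher and 1 lower with early unloading (background 50.9% and 1.88%), and 12 higher and 5 lower from early to late in free-moving mice (60.5% and 18%). With noise 6 were higher and 7 lower in free-moving mice (21.2% and 36.4%), and 4 higher and 11 lower in unloaded mice (6.75% and 45.6%). These counts are not read as a result about the list. Smdt1, a subunit of the calcium uniporter, and Mpc1, a subunit of the pyruvate carrier, had the signs of Slc25a28. Both were among the 5 transporters lower from early to late in free-moving mice, where 12 were higher. Values of single transporters under the alternative scalings are not given here. Smdt1 was lower from early to late in free-moving mice (−1.14 ± 0.12, adjusted p = 8.6e-11), higher with noise (1.10 ± 0.14, adjusted p = 3.7e-08) and higher with late quiet unloading (0.48 ± 0.14, adjusted p = 0.016). For Mpc1 the same 3 values were −1.05 ± 0.11 (adjusted p = 1.3e-10), 0.83 ± 0.13 (adjusted p = 1.7e-06) and 0.37 ± 0.13 (adjusted p = 0.053). Abcb10, a haem-related transporter of the inner membrane, moved the opposite way to Slc25a28, by 1.53 ± 0.20 (adjusted p = 9.5e-09) from early to late in free-moving mice.

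Among 7 regulators of mitochondrial biogenesis, 6 were higher from early to late in free-moving mice (background 60.5%) and 3 lower with noise in free-moving mice (background 36.4%). Ppargc1a and Ppargc1b, the coactivators of that programme, were 1.23 ± 0.12 (adjusted p = 2.1e-11) and 1.31 ± 0.12 (adjusted p = 3.3e-12) higher in late quiet free than in early free, and lower with late quiet unloading (−0.45 ± 0.14, adjusted p = 0.029, and −0.62 ± 0.14, adjusted p = 0.0024). Ppargc1b was low, with a mean of 0.686 RPKM (0.205 to 2.12), near the filter of 0.5 RPKM, and Ppargc1a averaged 3.11 RPKM. Their values under the alternative scalings are not given here. The 13 mitochondrially encoded genes went against the median of the carriers. From early to late in free-moving mice 13 were lower, with a median of −2.45 (background 18% lower). With noise in free-moving mice 13 were higher, with a median of 1.74 (background 21.2% higher). Since RPKM are shares of a total, some opposition between these genes and nuclear genes is built in.

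The relation of the differences to gene length and GC content varied between comparisons. As a description, Spearman's rho of the difference from early to late in free-moving mice with exonic length was 0.55 over the members and 0.50 over 13520 genes, and with GC percent −0.51 and −0.32. With noise in unloaded mice the values were −0.63 and −0.45 for length and 0.62 and 0.32 for GC. For late quiet unloading the members followed length less than all genes did (−0.16 and −0.45), for the difference of unloading between noise and quiet the signs were opposite (−0.11 and 0.33), and for early unloading rho with GC was −0.12 and 0.01. Slc25a28 has an exonic length of 3749 bases and 53.5% GC, and Slc25a16 4799 bases and 43.4% GC.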

How the data were processed

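The deposited table gives RPKM per gene and library, made by the authors with CASAVA 1.8 and HISAT per the submitters' processing notes; HISAT version, genome build, annotation and strandedness were not given in the sources used here, and reads were not analysed here. Groups came from the labels, and 0 columns were left unmatched. Depth was estimated from the steps between low RPKM values (up to 12 reads; 62.8% to 68.4% of these values came out whole within 0.02 reads). Genes with a mean of at least 0.5 RPKM were tested with limma 3.58.1 (R 4.3.3, trend, two-sided) on log2(RPKM + 0.5) in 1 model of all 48 libraries with terms for series and title number (35 residual degrees of freedom) and Benjamini-Hochberg adjustment. Fold changes on this scale understate changes of low genes. Paralog ratios were tested by two-sided permutation with scipy 1.17.1. The title number was a block. Libraries of the same number showed a median correlation of 0.08 over 168 pairs against −0.017 for other pairs. The labels do not say what else libraries of a number share, and these correlations cannot decide it. Positions are those of GENCODE M21 (GRCm38), matched by symbol, and promoters come from RefSeq (GRCm38.p6). The script was tested on simulated data. Per comparison, up to 8 called members in each direction by smallest p, the 3 of smallest p where none was called, and a fixed set of reference members could be named. Members, lists and comparisons were chosen with earlier results of these data known. Alternatives were another pseudocount, no filter, quantile normalization, rescaling to nuclear genes, an adjustment for the mitochondrial share, no block and leaving out each title number; removal of the length and GC trend, the adjustment of the ratios for the mitochondrial share, single early pairs and single libraries were added after seeing the data. Values of some single genes are not reported here, although they count in the totals.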

Additional observations from a re-analysis of the deposited data

Results flagged for a closer look

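Within the 8 series, 128 groups of 6 libraries (16 members) were looked at for a library whose gap to its nearest neighbour was over 0.625 of the whole range, and 14 stood apart this way. Chance sets about 1 group in 20 apart, and members of 1 library are not independent.

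Of these 14, 7 belonged to early unloaded a number 1, which was low for the energy and shuttle carriers: 173.71 RPKM of the phosphate carrier Slc25a3 (223.07 to 247.15 in the other libraries), 271.36 of the adenine nucleotide carrier Slc25a4, 16.226 of the aspartate-glutamate carrier Slc25a12, 33.41 of the glutamate carrier Slc25a22, 9.6215 of Slc25a25, 0.82727 of Slc25a30 and 13.157 of Slc25a44. The mitochondrial share of this library was 48.2%, against 11.2% to 18.5% in the other 5 of its series. Early unloaded b number 21 was low in the same way for Slc25a3 (147.33 RPKM), Slc25a18 (44.458 RPKM) and Slc25a22 (28.982 RPKM), with a mitochondrial share of 51.0%. The part of that share in these values was not tested.

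The other 4 were single values. Slc25a28 was low in late noise free number 5 (24.541 RPKM), where it still lay above every late quiet free library. Slc25a22 was high in late quiet free number 9 (70.92 RPKM), Slc25a29 in early free b number 1 (13.35 RPKM) and Slc25a34 in late quiet unloaded number 5 (5.1934 RPKM).

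For 6 members the effect of unloading differed between the late quiet and the early mice by a limma test of the difference itself. The log2 value for late less early was −0.57766 for Slc25a12, −0.58052 for Slc25a44, −0.78128 for Slc25a16, −0.56791 for Slc25a24, −0.48215 for Slc25a32 and 0.35657 for Slc25a28. Each early value averages a pair of series and each late value rests on 1 series a condition.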

How the results depend on the processing

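In early unloading the 27 called members became 6 with quantile normalization, 12 with nuclear genes rescaled, 0 after adjusting for the mitochondrial share, 0 in pair b alone and 0 to 35 when a title number was left out (0 without 9 or 17, 13 without 13). Late quiet unloading went from 1 to 10 and 12 with quantile normalization and the adjustment for the mitochondrial share. All genes called there went from 1745 to 3920 and 4055 of 13685. Noise in unloaded mice went from 22 to 0 after adjusting for the mitochondrial share, where 0 genes in all were called. It went to 3 to 27 with a number left out (3 without 13, 10 without 9, 12 without 17). The same adjustment gave 15 (from 32) and 10 (from 18) for late against early in free-moving and unloaded mice, with 6198 (from 10743) and 2346 (from 6479) genes in all. The interaction with noise went from 0 to 3 (quantile), 9 (mitochondrial share), 1 (length and GC) and 0 to 1 with a number left out. The interaction with period went from 6 to 13 (quantile), 10 (length and GC) and 1 to 12 (1 without 9 or 17). The second against the first early series went from 3 to 9 (quantile), 9 (nuclear), 5 (length and GC) and 0 to 17 (17 without number 1, 0 without 13). The slope went from 37 to 16 with quantile normalization. The course went from 2 to 1 with 6 levels and to 1 to 2 with a number left out (1 without 13 or 17). With the mitochondrial share as covariate 18 of the 32 called members turned sign from early to late in free-moving mice, 7 of 27 in early unloading, 2 of 18 and 3 of 22 with noise in free-moving and unloaded mice, and 2 of 18 from early to late in unloaded mice, and with quantile normalization 9 of 32, 3 of 27, 0 of 18, 2 of 22 and 0 of 18. Of the members followed singly, Slc25a25 turned to −0.02492 in early unloading and −0.09359 from early to late in free-moving mice, and Slc25a5 to −0.02096 in early unloading, all after adjusting for the mitochondrial share. Without the length and GC trend, Slc25a1 and Slc25a39 turned to −0.137 and −0.0301 with noise in free-moving mice, and Slc25a10 to 0.04311 from early to late. Paralog ratios went from 26 to 12 with quantile normalization, 9 with the mitochondrial share as covariate, 10 to 20 with a number left out, and 0 with the replicate block. There the smallest p that 6 pairs can give is 0.03125, so a test can pass the adjustment only if many of the 56 reach that value together. In the fits across genes, the count without the replicate block stayed within 1.5 times for the 11 counts it was run for. The counts not named here stayed within 1.5 times of the reported ones under the alternatives run. Counts of all tested genes moved as well, so these member counts are not read as a result about the family. The cause of these shifts was not tested. Depth limits the 7 members under 0.5 RPKM, and levels of low members rest on few reads.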
